A study of Homo sapiens with 6 samples.

Results

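The replication-dependent histone genes encode the linker histone H1 and the core histones H2A, H2B, H3 and H4 that package newly copied DNA. Members were the rows of the deposited gene table whose symbol carries the HIST1 to HIST4 cluster names, or the newer names of the same genes, leaving out symbols with a pseudogene suffix. The pattern matched 90 symbols, and 75 of 54308 rows remained after the suffix was applied, all of them under the older HIST names. They comprised 6 H1, 17 H2A, 23 H2B, 14 H3 and 15 H4 genes. Of these, 5 are typed as pseudogenes in GENCODE release 29 although their symbols lack the suffix (HIST2H2BA, HIST2H2BB, HIST2H2BC, HIST2H2BD and HIST3H2BA). The stem-loop binding protein gene SLBP was read beside them.

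The RNA came from 143B, a human osteosarcoma cell line. The vector control (VC) group carried a control plasmid and the knockout (KO) group carried a CRISPR/Cas9 plasmid against CNTNAP4, a neurexin-family membrane protein gene, each with 3 libraries. The cells of both groups were transfected and clonal, so a difference between the clones used and an effect of the deletion cannot be told apart. The labels give 48 h of transfection, whereas the study's methods give a longer one, then sorting of single cells and expansion of colonies. How long after transfection the RNA was taken is therefore not known. The labels give no sign of which clone each library came from, and p-values here measure only the spread between these samples.

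As background, most mRNAs end in a poly(A) tail, but replication-dependent histone mRNAs usually end a few bases after a short stem-loop. SLBP binds that stem-loop and, with the U7 small nuclear ribonucleoprotein, directs the cut that forms the 3′ end. Histone mRNA accumulates during S phase and is degraded when DNA synthesis stops. Many of these genes can also give longer, polyadenylated transcripts. The labels name a stranded kit that selects mRNA by its poly(A) tail, whereas the study's methods name total RNA sequencing. Which forms of each histone mRNA entered the libraries is therefore not known from the signals, and its part in the values was not tested. In bulk RNA, fewer cells in S phase and less histone mRNA per cell cannot be told apart.

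The stem-loop was found, within 150 bases of the stop codon, in annotated transcripts of 32 members, 22 to 67 bases after the stop codon. Its 16 bases took 6 forms. The commonest was shared by 17 H2A, H2B and H3 genes, and the 8 H4 genes in which a stem-loop was found carried 2 forms of their own. For the members that differed between KO and VC and had an annotated stem-loop, it is printed here as DNA, 5′ to 3′ on the gene's strand, to show the element that SLBP reads. The capitals mark the 16 bases of the stem-loop, and the lower case marks 5 bases on either side (GENCODE release 29 transcripts, GRCh38).
HIST1H2AE, chr6:26217417-26217432, plus strand: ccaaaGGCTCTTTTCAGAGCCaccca
HIST1H2BE, chr6:26184210-26184225, plus strand: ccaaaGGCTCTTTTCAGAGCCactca
HIST3H2A, chr1:228457369-228457384, minus strand: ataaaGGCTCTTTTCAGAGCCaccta
HIST1H3E, chr6:26225596-26225611, plus strand: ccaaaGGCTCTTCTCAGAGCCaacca
HIST2H4A, chr1:149833032-149833047, plus strand: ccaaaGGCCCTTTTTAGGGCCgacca
HIST2H4B, chr1:149860769-149860784, minus strand: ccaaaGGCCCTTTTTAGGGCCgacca
HIST1H2AG, chr6:27133515-27133530, plus strand: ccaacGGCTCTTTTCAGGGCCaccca
HIST1H2BC, chr6:26123472-26123487, minus strand: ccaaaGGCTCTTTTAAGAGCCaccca
HIST1H3G, chr6:26270923-26270938, minus strand: aaaaaGGCTCTTTTAAGAGCCgccta
HIST3H3, chr1:228424853-228424868, minus strand: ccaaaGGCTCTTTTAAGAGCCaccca
The genes from HIST1H2AE to HIST2H4B in this order were higher in KO and those from HIST1H2AG to HIST3H3 were lower, as described gene by gene in what follows. The remaining genes that differed (HIST1H1C, HIST1H1D and HIST1H2BO) have annotated transcripts that end at the stop codon, so no stem-loop was read for them.

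Promoters were read for 65 members from RefSeq (GRCh38.p14). In the 250 bases before the start, searched on both strands, TATAAA was present in 67.7% of members and 10.7% of all 35116 promoters, and CCAAT in 84.6% against 32.0%. CCAAT was present in every H1, H2A, H2B and H3 promoter read and in 3 of 13 H4 promoters. The octamer ATTTGCAT was found in 11 of 16 H2A and 14 of 18 H2B promoters, in none of the H1, H3 or H4 promoters, and in 1.6% of all promoters. The 150 bases before the start are shown for HIST1H1C, HIST3H2A and HIST1H2BC, the genes of the H1, H2A and H2B classes whose results are described at most length, and for HIST2H4A as an H4 promoter without any of the motifs. Capitals mark a CCAAT or ATTTGCAT match on either strand, CCAAT reading ATTGG on the other strand.
HIST1H1C, chr6:26056471-26056620, minus strand: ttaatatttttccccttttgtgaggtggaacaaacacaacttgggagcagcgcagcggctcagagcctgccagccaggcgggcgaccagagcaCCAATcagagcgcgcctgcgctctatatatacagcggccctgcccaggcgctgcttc
HIST3H2A, chr1:228457874-228458023, minus strand: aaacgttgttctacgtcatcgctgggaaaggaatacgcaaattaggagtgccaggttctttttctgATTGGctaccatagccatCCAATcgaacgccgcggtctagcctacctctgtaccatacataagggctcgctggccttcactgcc
HIST1H2BC, chr6:26123927-26124076, minus strand: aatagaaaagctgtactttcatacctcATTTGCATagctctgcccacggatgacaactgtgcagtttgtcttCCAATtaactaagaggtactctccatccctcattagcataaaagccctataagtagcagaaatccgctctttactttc
HIST2H4A, chr1:149832507-149832656, plus strand: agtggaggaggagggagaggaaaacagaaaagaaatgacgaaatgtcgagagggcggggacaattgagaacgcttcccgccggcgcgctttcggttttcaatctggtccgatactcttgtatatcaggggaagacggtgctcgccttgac
A match is a description of the letters and not evidence of binding.

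Gene expression was deposited as log2 signals that had been quantile-normalized between the 6 libraries, and a log2 fold change here is the mean of the KO libraries minus the mean of the VC libraries. Both groups had 2 or more values for 19306 genes, to which limma's moderated test was applied, and a gene was called when its Benjamini-Hochberg adjusted p was under 0.05. Over all genes, 2526 were higher and 3828 lower in KO, a split that became 3141 and 3066 when each library was centred on its median and 3092 and 3301 after a further quantile normalization. Across all tested genes the log2 fold change had a median of -0.13, and of -0.04 with centred libraries. CNTNAP4 itself had a value only in VC replicate 3 (-7.18), which allows no check of the deletion. Of 11 osteoblast and mesenchymal markers, IBSP had no value, BGLAP had values only in KO replicates 1 and 2, SP7 had no value in VC replicate 1 and KO replicate 2, and the others had values in all 6 libraries, and the list's summed linear signal was 1399 to 1576 in VC and 1691 to 2108 in KO. Most of that sum is VIM, which was not called (log2 fold change 0.38, adjusted p = 0.0667), and of the 9 markers tested 4 were higher and 2, TWIST1 (-0.68) and COL1A2 (-0.81), were lower. The 4 markers of other cell types summed to 24.9 to 26.0 in VC and 54.5 to 89.9 in KO, mostly through CD68, which was 4.43 to 4.51 in VC and 5.71 to 6.46 in KO, whereas EPCAM was lower (-0.67, adjusted p = 0.0157). PTPRC and PECAM1 lay between -7.12 and -4.35 in every library. The part of these markers in the histone values was not tested.

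The number of reads behind a signal is not given. Among genes with a value in only 1 or 2 libraries, the signal fell with exon length (slope -0.87 per doubling, 2002 genes), so the scale behaves as a level per length. From the signal that recurred for genes seen in a single library, a signal can be turned into approximate read equivalents (the reads it would stand for at that gene's length). Of 125 such genes with a single annotated exon, 56% lay within 0.3 of the recurring level on the log2 scale. The conversion is a description only, since the lengths used by the authors are not stated in the sources used here and the quantile normalization moved the values. By this measure, 34 of the members tested had a mean of at least 20 read equivalents and 27 had fewer.

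Of the 75 members, 61 were tested, 6 had no value in any library, and 8 had too few values to be tested. Those without any value included the testis forms HIST1H2AA, HIST1H2BA and HIST1H1T. A histone gene expressed in only 1 group would be left out by this filter, and HIST1H4B and HIST1H4F were such genes. HIST1H4B had log2 signals of -2.71, -4.21 and -4.37 in VC and HIST1H4F had -4.33, -3.20 and -2.43, and neither had a value in a KO library. These VC signals correspond to about 2.1 and 2.0 read equivalents. With 1 added to the linear signal and empty cells set to 0, the adjusted p from limma was 0.098 for HIST1H4B and 0.066 for HIST1H4F. The remaining 6 (HIST2H3C, HIST1H1A, HIST1H4A, HIST1H2AB, HIST1H2BB and HIST1H4L) had 1 to 4 values each.

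Between KO and VC the histone genes moved in both directions. At an adjusted p under 0.05, 13 of the 61 tested members differed (21.3%), against 32.9% of all genes tested. Of these, 8 members were higher in KO (13.1%, and 13.1% of all genes) and 5 were lower (8.2%, against 19.8% of all genes). Unadjusted p-values under 0.05 were reached by 18 members. The groups did not overlap in 21 members, beside 57.1% of all genes, and of these 10 lay above VC and 11 below it, where 21.5% and 35.6% of all genes did. The median log2 fold change of the tested members was -0.29 (0.14 over the 16 members in the upper 50% of mean signal), and 38 of 61 (62.3%) were negative, beside 59.8% of all tested genes. When 1 library was left out, the members called numbered 3 (VC replicate 1), 6 (VC replicate 2), 2 (VC replicate 3), 16 (KO replicate 1), 9 (KO replicate 2) or 4 (KO replicate 3). In the same order these were 5.17%, 10.2%, 3.57%, 27.1%, 15.5% and 6.67% of the members tested. The same fits called 7.54%, 13.1%, 6.57%, 47%, 23.6% and 10.9% of all genes tested.

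**Figure D1:**
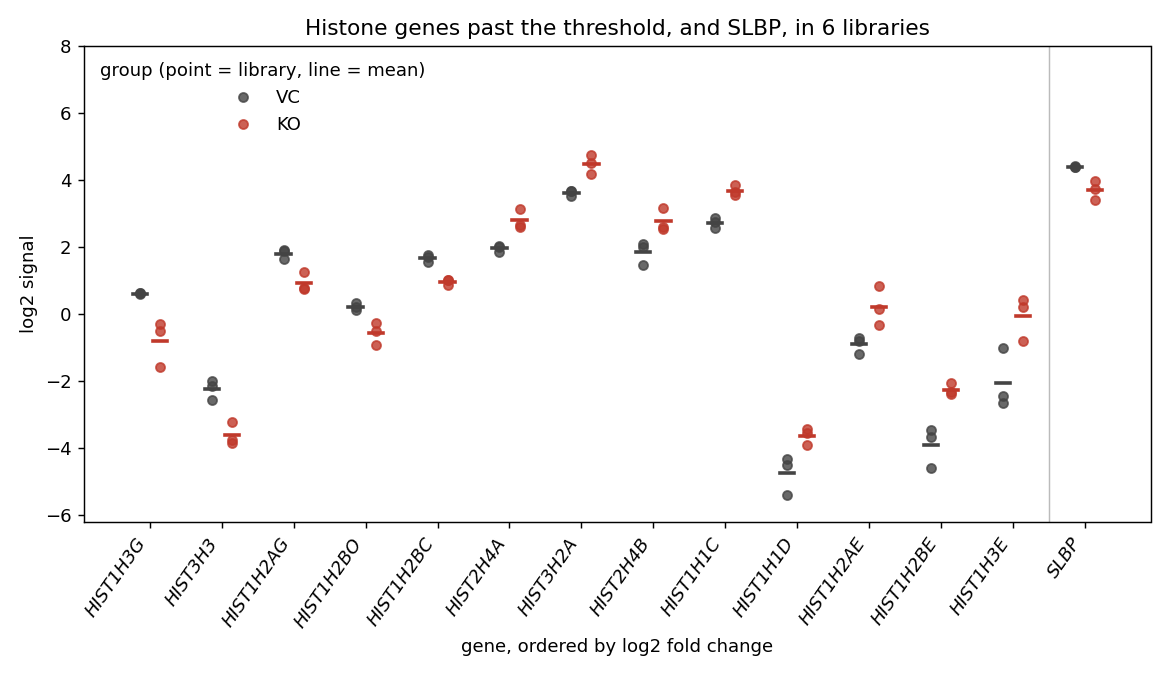
Log2 signal (y axis) of the 13 histone genes that passed the threshold, ordered by log2 fold change, and of SLBP at the right, in the 3 VC (grey) and 3 KO (red) libraries, each point a library and each short line a group mean. The 5 genes at the left are lower and the 8 that follow are higher in KO, and the groups do not overlap in any of the 13.

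**Figure D2:**
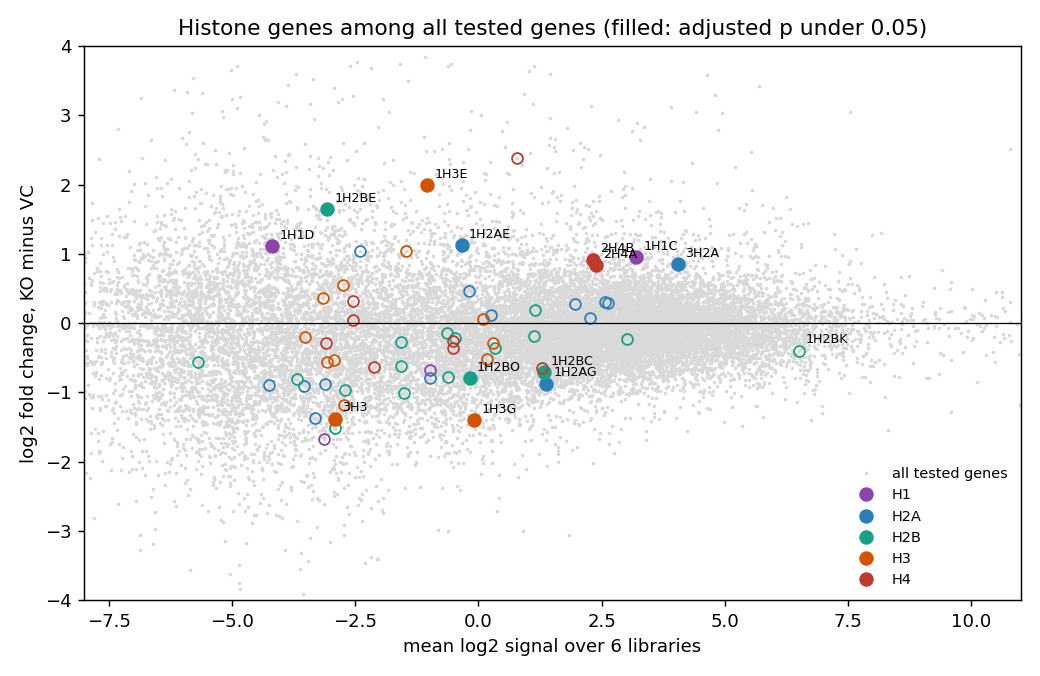
Log2 fold change (y axis, KO minus VC) against the mean log2 signal over 6 libraries (x axis) for all tested genes in grey and for the 61 tested histone genes coloured by class, filled where the adjusted p was under 0.05 and labelled without the HIST prefix. Genes outside the axis limits are not drawn, and the histone genes with low signal scatter over a wider range of fold change than HIST1H2BK at the right.

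Linker histones bind DNA where it enters and leaves the nucleosome, and HIST1H1C, which encodes H1.2, was the histone gene with the lowest adjusted p among those higher in KO. Of 4 tested H1 genes, 2 were higher and none lower (1 lower at an unadjusted p under 0.05 in limma's test), beside 13.1% higher and 19.8% lower of all tested genes. HIST1H1C (chr6:26055787-26056428) had log2 signals of 2.86, 2.75 and 2.56 in VC and 3.64, 3.84 and 3.55 in KO. The lowest KO library lay above the highest VC library. The mean rose from 2.72 ± 0.15 to 3.68 ± 0.15 (SD, n = 3 each), a log2 fold change of 0.95 (standard error 0.12, limma adjusted p = 0.0101) or 1.94-fold on the linear scale. It passed in all 6 fits that each left out a library.

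HIST1H1D, the H1.3 gene, was also called higher but at very low signal. Its values were -5.38, -4.33 and -4.50 in VC and -3.44, -3.54 and -3.89 in KO, about 2.3 read equivalents (log2 fold change 1.11, standard error 0.31, limma adjusted p = 0.0458). A pseudocount of 1 on the linear signal gave a log2 fold change of 0.06 (adjusted p = 0.0853). Trend and robust moderation gave an adjusted p of 0.0559. It was not called in any fit that left out a library, where the highest adjusted p was 0.111 without KO replicate 2. HIST1H1B, the H1.5 gene, had values of -1.34, -2.99 and -2.54 in VC and -3.46, -4.49 and -3.92 in KO, which did not overlap and gave a log2 fold change of -1.67 that missed the threshold in limma's test (adjusted p = 0.0537). It passed with trend and robust moderation (0.0281), and under a pseudocount of 1 its log2 fold change became -0.20 (adjusted p = 0.121). HIST1H1E, the H1.4 gene, overlapped between the groups (-0.67, adjusted p = 0.352).

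Among 15 tested H2A genes, 2 were higher, 1 was lower (20% called, beside 32.9% of all tested genes), and the median log2 fold change was 0.11. HIST3H2A (chr1:228456979-228457873) had the highest signal of the class. It had log2 signals of 3.67, 3.52 and 3.69 in VC and 4.18, 4.75 and 4.50 in KO, so the groups did not overlap. Its log2 fold change was 0.85 (standard error 0.16, limma adjusted p = 0.0195), and it was called in 2 of the 6 fits with a library left out (highest adjusted p 0.0636 without VC replicate 3). HIST1H2AE had -0.71, -1.20 and -0.80 in VC and -0.33, 0.84 and 0.14 in KO (log2 fold change 1.12, adjusted p = 0.0497). This was the member nearest to the threshold, and it kept its call in 1 of the 6 such fits (0.127 without VC replicate 2). A pseudocount of 1 on the linear signal gave a log2 fold change of 0.51 and the call was lost (adjusted p = 0.0611, or 0.0892 with empty cells as 0).

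HIST1H2AG (chr6:27133042-27135291) moved the other way. Its values were 1.88, 1.63 and 1.91 in VC and 1.25, 0.79 and 0.75 in KO (log2 fold change -0.87, standard error 0.17, limma adjusted p = 0.0201), and the highest KO value lay under the lowest VC value. It was called in 3 of the 6 fits with a library left out (0.0712 without VC replicate 3). The HIST2 genes HIST2H2AA3 and HIST2H2AA4 have identical coding sequences, so reads may be split between them. HIST2H2AA3 had 2.63, 2.22 and 2.57 in VC and 2.91, 2.83 and 2.56 in KO, which overlapped (0.29, adjusted p = 0.195). HIST2H2AA4 had 2.60, 2.24 and 2.42 in VC and 2.76, 2.73 and 2.68 in KO (0.31, adjusted p = 0.0855), which passed at an adjusted p of 0.0363 when libraries were centred on their median, 0.0309 among genes in the upper 50% of mean signal and 0.0433 with trend and robust moderation.

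The H2B genes were the class with the most negative values. Of 19 tested H2B genes, 17 had a negative log2 fold change (89.5%), beside 59.8% of all tested genes, and the median was -0.55. These included 3 genes typed as pseudogenes, HIST2H2BA (-0.62), HIST2H2BB (-0.55) and HIST2H2BC (-0.24). The median is the value of HIST2H2BB, at about 0.6 read equivalents, and other negative members such as HIST1H2BI (2.0) also had few. HIST2H2BB had 0.4 to 0.9 in the 6 libraries, less than a whole read in each, so the measure is rough for it. Only 3 of the 19 passed the threshold, 1 higher and 2 lower (15.8%, beside 32.9% of all tested genes). HIST1H2BC (chr6:26114873-26123926) had log2 signals of 1.57, 1.69 and 1.77 in VC and 1.01, 1.02 and 0.88 in KO. The KO values lay close together and under all VC values. The mean fell from 1.68 ± 0.10 to 0.97 ± 0.076 (SD, n = 3 each), a log2 fold change of -0.71 (standard error 0.087, limma adjusted p = 0.00972), and HIST1H2BC was the other member called in all 6 fits with a library left out.

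HIST1H2BO had values of 0.33, 0.21 and 0.12 in VC and -0.51, -0.28 and -0.92 in KO (log2 fold change -0.79, limma adjusted p = 0.0292), at about 19.9 read equivalents. A pseudocount of 1 on the linear signal gave a log2 fold change of -0.37 (adjusted p = 0.0167). It was called in 2 of the 6 fits with a library left out (0.0901 without VC replicate 1). HIST1H2BE, the H2B gene that was higher, had -4.58, -3.44 and -3.67 in VC and -2.05, -2.39 and -2.32 in KO (log2 fold change 1.65, adjusted p = 0.0202). HIST1H2BE had about 6.1 to 13.4 read equivalents in VC and 27.9 to 35.3 in KO, with a mean of 20.5 that only just passes the limit of 20. Its call held in 4 of the 6 fits (0.0615 without KO replicate 3), and under a pseudocount of 1 its log2 fold change became 0.18 (adjusted p = 0.0106). HIST1H2BJ had 2.02, 1.64 and 1.40 in VC and 1.26, 0.99 and 0.67 in KO, without overlap, and did not pass (-0.71, adjusted p = 0.0593). It passed among genes in the upper 50% of mean signal (0.0171) and with trend and robust moderation (0.0235).

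HIST1H2BK (chr6:27146418-27146798) had by far the highest signal of the members. Its values were 6.73, 6.66 and 6.70 in VC and 6.56, 6.01 and 6.32 in KO. All KO values were lower than all VC values, but the KO libraries differed among themselves and the log2 fold change of -0.40 did not pass (standard error 0.15, limma adjusted p = 0.0944). It passed, with the same log2 fold change, when the test was restricted to genes in the upper 50% of mean signal (adjusted p = 0.0346) and with trend and robust moderation (0.0389). Among the H2B genes, HIST2H2BC, typed as a pseudogene, came next at 3.27, 2.84 and 3.26 in VC and 2.96, 2.89 and 2.82 in KO, which overlapped (-0.24, adjusted p = 0.244). It overlaps HIST2H2BD on the opposite strand, and whether the counting used strand is not stated in the sources used here.

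Because HIST1H2BK took such a large share, the summed linear signal of the members, a level per length, was read with and without it. The sum was 207, 190 and 202 in VC and 209, 193 and 183 in KO, which overlapped. HIST1H2BK made up 51.1%, 53.4% and 51.5% of it in VC and 45.2%, 33.4% and 43.7% in KO. Without it the sum was 101, 88.3 and 97.8 in VC and 115, 128 and 103 in KO, so that the KO libraries lay above the VC libraries. By class, the H1 sum was 6.66 to 8.15 in VC and 12.1 to 14.9 in KO, the H2A sum 34.7 to 42.0 against 47.9 to 57.6, and the H4 sum 13.5 to 16.5 against 19.8 to 27.3. The H2B sum ran the other way, from 126 to 135 in VC and from 85.1 to 118 in KO, and the H3 sum overlapped. These sums follow the few members with high signal and carry no test.

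Of 13 tested H3 genes, 1 was higher, 2 were lower (23.1% called, beside 32.9% of all tested genes), and the median log2 fold change was -0.29. HIST1H3E had the largest rise among the members called, with values of -2.66, -1.02 and -2.44 in VC and 0.43, 0.22 and -0.79 in KO (log2 fold change 1.99, standard error 0.55, limma adjusted p = 0.0448). The VC libraries spread widely, with VC replicate 2 near the lowest KO library, and the call held in 1 of the 6 fits with a library left out (0.121 without VC replicate 3). A pseudocount of 1 on the linear signal gave a log2 fold change of 0.66 (adjusted p = 0.0399, or 0.0602 with empty cells as 0). HIST1H3G (chr6:26269405-26271815) had 0.62, 0.59 and 0.63 in VC and -0.30, -0.49 and -1.57 in KO, with VC libraries that nearly coincided and KO replicate 3 well under the others (log2 fold change -1.40, adjusted p = 0.0345). It was called in 2 of the 6 fits with a library left out (0.0946 without VC replicate 3), and under a pseudocount of 1 its log2 fold change became -0.65 (adjusted p = 0.0131).

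HIST3H3 encodes the testis histone H3t. It had values of -2.13, -2.56 and -1.99 in VC and -3.76, -3.84 and -3.21 in KO (log2 fold change -1.38, standard error 0.23, limma adjusted p = 0.0155), at about 4.1 read equivalents. Its call held in 4 of the 6 fits with a library left out (0.0582 without VC replicate 1), and under a pseudocount of 1 its log2 fold change became -0.17 (adjusted p = 0.0173). HIST2H3A had 0.48, 0.34 and 0.47 in VC and -0.79, 0.83 and -0.31 in KO, which overlapped, and shares its coding sequence with HIST2H3C, which had a value only in KO replicate 1 (-0.29).

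Of 10 tested H4 genes, 2 were higher and none lower in limma's test (0 lower also at an unadjusted p under 0.05), with a median log2 fold change of -0.11. The share called was 20%, beside 32.9% of all tested genes. HIST2H4A and HIST2H4B have identical coding sequences and the same stem-loop, so reads may be split between them and their values are not independent. HIST2H4A (chr1:149832659-149839767) had log2 signals of 2.01, 1.86 and 2.04 in VC and 2.61, 3.15 and 2.66 in KO. HIST2H4B (chr1:149854045-149861210) had 2.11, 1.46 and 2.01 in VC and 2.55, 3.17 and 2.60 in KO. In both genes the KO libraries lay above the VC libraries and KO replicate 2 was the highest. The log2 fold changes were 0.84 (standard error 0.17, limma adjusted p = 0.0216) and 0.92 (standard error 0.25, adjusted p = 0.0432). With a library left out, HIST2H4A was called in 2 of 6 fits (0.0677 without VC replicate 1) and HIST2H4B in 1 of 6 (0.0926 without VC replicate 3). HIST2H4B was also not called under a pseudocount of 1 that counts empty cells as 0 (0.0540). Each overlaps an H3 gene on the opposite strand, HIST2H3C and HIST2H3A respectively.

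HIST1H4J had the largest log2 fold change of any tested member, 2.38, and did not pass (adjusted p = 0.307). Its values were 1.68, -4.20 and 1.27 in VC and 1.37, 2.61 and 1.91 in KO, so the fold change rests on VC replicate 2. HIST1H4K, with the identical coding sequence, had 1.29, 2.07 and 1.46 in VC and 1.60, 0.38 and 0.90 in KO. In VC replicate 2, HIST1H4J had its lowest value and HIST1H4K its highest, and how reads were divided between the pair was not tested.

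By genomic cluster, the HIST1 genes on chromosome 6 numbered 44 tested, with 5 higher, 4 lower and a median log2 fold change of -0.36. Over all tested genes 13.1% were higher and 19.8% lower, 32.9% in either direction, with a median of -0.13. The share called was 20.5% in HIST1 and 15.4% in HIST2. The 13 tested HIST2 genes on chromosome 1 had 2 higher, none lower (1 lower at an unadjusted p under 0.05 in limma's test) and a median of -0.24. HIST3 had 1 higher and 1 lower of 3 tested, and the only HIST4 gene, HIST4H4, overlapped between the groups (-0.29, adjusted p = 0.737). Members at 20 or more read equivalents had 7 higher and 3 lower of 34 with a median of -0.20, and those under it had 1 higher and 2 lower of 27 with a median of -0.62. The shares called were 29.4% and 11.1%. Members whose annotated transcripts run at least 200 bases past the stop codon had 5 higher and 3 lower of 24 (33.3% called, median -0.27). Those with a shorter stretch after it had 1 higher and 1 lower of 9 (22.2% called, median 0.04). Those whose annotation stops at the stop codon had 2 higher and 1 lower of 25 (12% called, median -0.54). Read equivalents in this last group ran from few, as in HIST1H2BI (2.0), to many, as in HIST1H2BK (1969). Their part in these shares was not tested. Both limits were chosen after the data had been seen.

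Histone genes often lie head to head, and an H2A and an H2B gene may then share the stretch between their start sites. Among the members, 12 head-to-head pairs had start sites 219 to 357 bases apart, and in 11 both genes were tested. All were of an H2A and an H2B gene except the pair of HIST1H3J and HIST1H2BO. The log2 fold changes had the same sign in 6 pairs and opposite signs in 5. In no pair did both genes pass the threshold, and in 6 pairs 1 gene did. Over all tested genes 32.9% were called and 59.8% had a negative log2 fold change. The counts of pairs are a description, and whether they depart from these shares was not tested. HIST1H2BC and HIST1H2AC, 219 bases apart, had log2 fold changes of -0.71 and 0.28, HIST3H2A and HIST3H2BB, 234 bases apart, had 0.85 and -0.27, and HIST1H2BG and HIST1H2AE, 283 bases apart, had -0.21 and 1.12. HIST1H2BJ and HIST1H2AG, 292 bases apart, were both lower in value (-0.71 and -0.87). The difference between the genes of a pair was not tested. HIST1H2BO belongs to a pair with each of HIST1H3J and HIST1H2AM, which overlap on the same strand. Its call is therefore counted more than once among the 6 pairs.

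**Figure D3:**
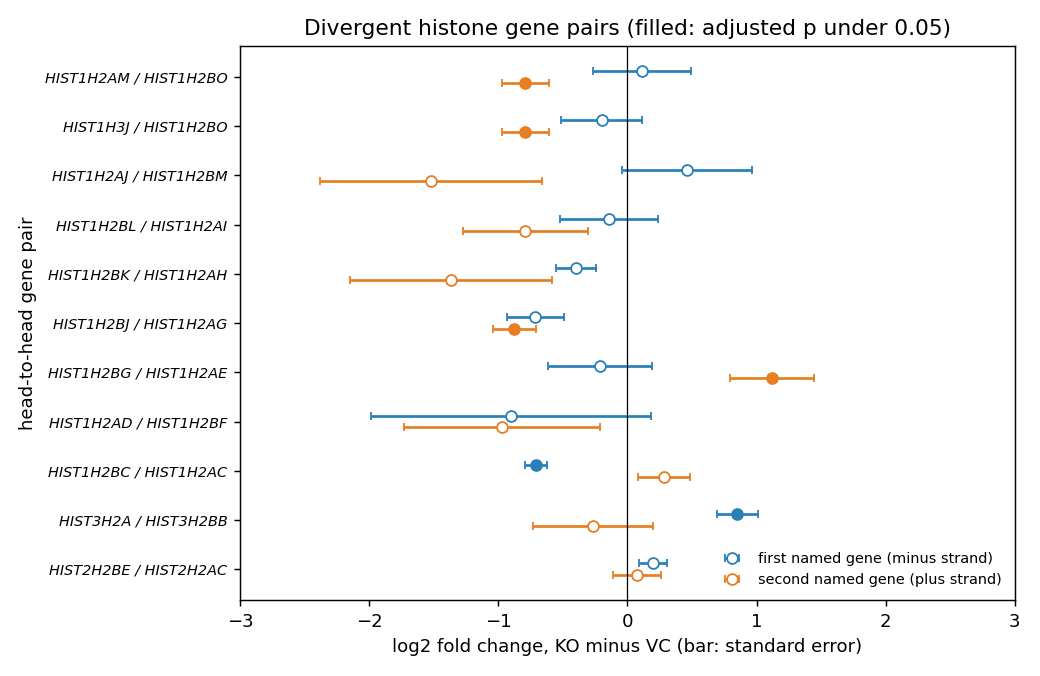
Log2 fold change (x axis, KO minus VC) with its standard error for the 11 head-to-head pairs in which both genes were tested (y axis), the gene on the minus strand in blue and that on the plus strand in orange, filled where the adjusted p was under 0.05. Filled and open points stand beside each other in 6 pairs, and no pair has both points filled, where 32.9% of all tested genes were called.

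SLBP (chr4:1692800-1712555), whose product binds the stem-loops printed above, was lower in KO. Its log2 signals were 4.38, 4.43 and 4.38 in VC and 3.99, 3.39 and 3.73 in KO, so every KO library lay under every VC library. The log2 fold change was -0.69 (standard error 0.16, limma adjusted p = 0.0297). The call depended on the libraries, with an adjusted p of 0.0103 and 0.0331 without KO replicates 1 and 2, and 0.0854, 0.0821, 0.0866 and 0.0799 without VC replicates 1, 2 and 3 and KO replicate 3.

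A list of 44 genes, called end factors here, covers histone gene transcription, 3′ end formation and histone mRNA decay, SLBP included. It is not limited to factors specific to histone mRNA. The list had 14 lower and none higher in KO in limma's test (27 and 0 at an unadjusted p under 0.05). Among the 14 were CPSF1, CSTF1 and PCF11 of the general cleavage and polyadenylation machinery. The median log2 fold change was -0.32, and 33 genes lay under VC without overlap. Over all tested genes 19.8% were called lower, 13.1% were called higher, 35.6% lay under VC without overlap and the median was -0.13. CSTF1, a subunit of the cleavage stimulation factor, had a log2 fold change of -0.69 in limma's test (adjusted p = 0.00891), from 4.03, 4.03 and 3.98 in VC and 3.42, 3.24 and 3.31 in KO, and was called in all 6 fits with a library left out. CPSF2, a subunit of the histone cleavage complex, had a log2 fold change of -0.39, CPSF1 of the polyadenylation machinery -0.35 and SNRPG, a core Sm protein, -0.57. Among the regulators, E2F1 had -1.07, CCNE2, which encodes the cyclin E2 that acts with CDK2 at the start of S phase, had -1.28, and the transcription factor YY1 had -0.52. These 6 genes passed at adjusted p-values of 0.0182 to 0.0328 in limma's test, each in 2 of the 6 fits with a library left out.

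Beside SLBP and CPSF2, the values of 5 further genes of the list that act on histone genes or their mRNA are given here, picked out after they were seen. In all of them but LSM10 the KO libraries lay under the VC libraries. NPAT, the coactivator of histone genes, had 1.90, 1.98 and 1.96 in VC and 1.87, 1.44 and 1.49 in KO (log2 fold change -0.35, limma adjusted p = 0.0977). The U7-specific proteins gave -0.14 for LSM10 (adjusted p = 0.271) and -0.26 for LSM11 (0.0688), and the U7-binding zinc finger protein gene ZNF473 gave -0.15 (0.199). CASP8AP2, a protein of the histone locus body, was called lower (-0.60, adjusted p = 0.0454), in 1 of the 6 fits with a library left out. It was not called with centred libraries (0.0575), where ZNF473 had -0.06 (0.576) and LSM10 -0.05 (0.622). Of the 44 genes of the list, 39 had a negative log2 fold change. The others included SYMPK (0.09, limma adjusted p = 0.371), with KO libraries above VC libraries, and MIF4GD (0.10, 0.586). MIF4GD and ERI1 (-0.08, 0.464) overlapped between the groups.

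The replication-independent histones are made outside S phase as well, and 13 of the 15 listed were tested, with 2 higher, 2 lower and a median log2 fold change of -0.28, beside 13.1% higher and 19.8% lower of all tested genes. H1F0, the linker histone H1.0 that is typical of cells that have stopped dividing, had 6.47, 6.47 and 6.49 in VC and 7.17, 7.14 and 7.09 in KO. The libraries of each group nearly coincided, and the log2 fold change was 0.66 (standard error 0.064, limma adjusted p = 0.00789), called in all 6 fits with a library left out. H2AFJ, the H2A.J gene, rose by 0.36 (adjusted p = 0.0475, called in 1 of 6 such fits). CENPA, the centromeric H3, and H2AFV, an H2A.Z gene, were lower by log2 fold changes of -0.65 and -0.47 (adjusted p-values 0.0192 and 0.0197), each called in 2 of 6.

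Of 28 histone chaperones and import factors, 11 were lower and none higher in KO in limma's test (15 and 1 at an unadjusted p under 0.05), with a median log2 fold change of -0.31, beside 19.8% lower and 13.1% higher of all tested genes. SUPT16H, the large subunit of the FACT complex, had 7.10, 7.16 and 7.11 in VC and 6.43, 5.81 and 6.09 in KO (log2 fold change -1.01, limma adjusted p = 0.0150). Other genes called lower were IPO4, an importin for H3 and H4 (-0.40), NAP1L4, a chaperone of H2A and H2B (-0.61), SET (-0.40), TONSL (-0.70), ATRX (-0.60), NASP, which holds soluble H3 and H4 (-0.58), and CDAN1 (-0.31). Their adjusted p-values ran from 0.0180 to 0.0386 and each was called in 1 to 3 of the 6 fits with a library left out. With libraries centred on their median, CDAN1 (log2 fold change -0.22, adjusted p = 0.0620) and CPSF1 (-0.27, 0.0541) no longer passed.

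The S phase genes were read as the setting in which these histone genes are expressed. Of 43, 16 were lower and none higher in KO in limma's test (32 and 0 at an unadjusted p under 0.05), with a median log2 fold change of -0.62, beside 19.8% lower and 13.1% higher of all tested genes and their median of -0.13. TYMS, thymidylate synthase, had -1.01 (adjusted p = 0.0146), and ATAD2 had -0.98, DSCC1 -0.85, UBR7 -0.64, RRM1 -0.62 and MCM6 -0.59. The list shares SLBP, CCNE2 and CASP8AP2 with the end factors and NASP and CHAF1B with the chaperones, so the counts are not independent.

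Library by library, the histone genes and the S phase genes were not in the same order. Over the 55 members with 6 values, the median difference from the VC mean was 0.12 in KO replicate 1, -0.05 in KO replicate 2 and -0.47 in KO replicate 3. Over the 43 S phase genes it was -0.25, -0.89 and -0.67, and over all genes with 6 values -0.04, -0.16 and -0.15. By these medians, KO replicate 2 was the lowest library for the S phase genes and KO replicate 3 for the histone genes. The histone median counts members with few read equivalents like the others. HIST1H2BK, the member with the highest signal, was lowest in KO replicate 2 (6.01), whereas HIST3H2A and HIST1H1C were highest there. The VC libraries lay between -0.04 and 0.05 for both lists.

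**Figure D4:**
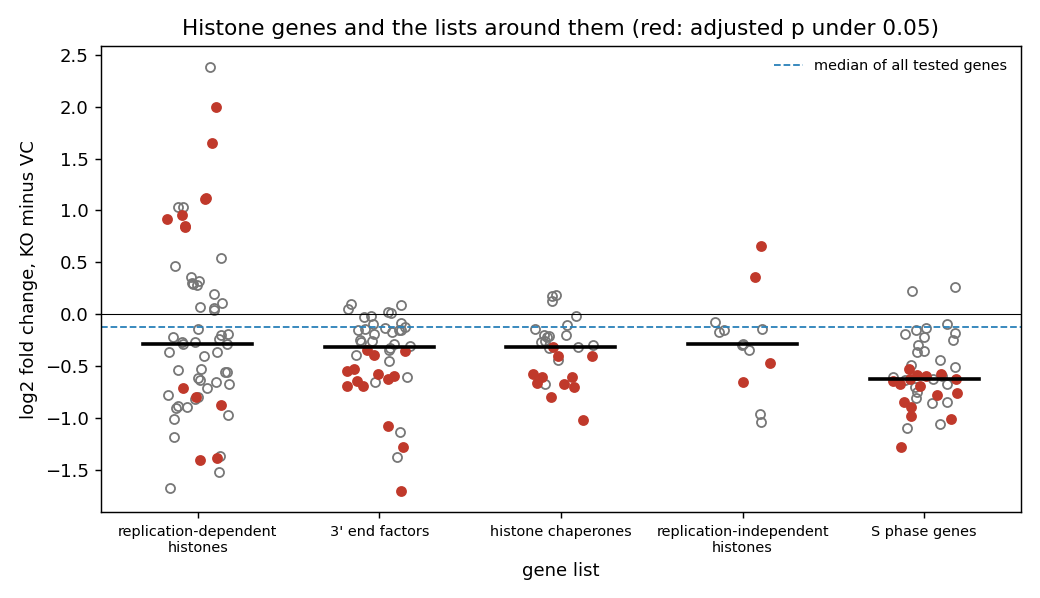
Log2 fold change (y axis, KO minus VC) of each tested gene in the replication-dependent histones and in the 4 lists read beside them (x axis), red where the adjusted p was under 0.05, with a black bar at each list's median and a dashed line at the median of all tested genes (-0.13). Red points lie on both sides of 0 among the histones and the replication-independent histones, and only under 0 in the other 3 lists.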

How the data were processed

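Signals of 3 VC and 3 KO libraries were taken from the table that the authors deposited as log2 values, already quantile-normalized between libraries. Per the labels, the submitters' processing notes name CASAVA, STAR, Partek and GRCh38.p13, and the methods add CLC Genomics software. The linear unit and read counts are not given in the sources used here, so depth is unknown and no counting interval was computed. Libraries were grouped by their titles.

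The 19306 genes that had 2 or more values for VC and for KO were tested in R 4.3.3 with limma 3.58.1, using a linear model with empirical Bayes moderation, two-sided, with Benjamini-Hochberg adjustment over all genes tested. The script was tested on simulated data. S phase genes came from Seurat 5.3.0. Gene positions, transcript lengths and stem-loops came from GENCODE release 29 (GRCh38) and promoters from RefSeq (GRCh38.p14), used without conversion of coordinates. All 75 members were found by symbol in GENCODE.

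The members and lists were chosen with earlier results of these data known. Named genes are all members called, the 8 members with the highest mean signal, members with values in only 1 group, SLBP, and up to 8 called genes of each list with the lowest adjusted p, and not every gene that this rule names is reported here. Genes named outside this rule (HIST1H1B, HIST1H1E, HIST1H2BJ, HIST2H2BA, HIST2H2BB, HIST2H3A, HIST2H3C, HIST1H4J, HIST1H4K, HIST4H4, the partners in gene pairs, NPAT, LSM10, LSM11, ZNF473, CASP8AP2, SYMPK, MIF4GD and ERI1) were chosen after their values were seen. Alternatives were 1 added to the linear signal, with empty cells left empty or set to 0, genes in the upper 50% of mean signal, genes with 6 values, median-centred libraries, a further quantile normalization, trend and robust moderation, a replicate block and each library left out. Adding 1 shrinks the fold changes of members with low signal. A limit of 20 read equivalents was added after seeing the data.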

Additional observations from a re-analysis of the deposited data

How the results depend on the processing

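No called log2 fold change of a named gene changed sign under the alternatives run, the median of the members did in 1 of them, and HIST1H1C and HIST1H2BC were called under every alternative run. With 1 added to the linear signal, 23 of the 3′ end factors, 4 replication-independent histones and 26 S phase genes were lower and 1 chaperone was higher, and with empty cells also set to 0, 4 histone members and 1 chaperone were higher. Of the genes tested, 40.3% were called with 1 added (2988 higher and 4785 lower) and 28.1% with empty cells also set to 0. Among genes in the upper 50% of mean signal, 16 members were tested, of which 5 were higher and 4 lower (59.1% of such genes were called), their median log2 fold change was 0.14, and 27 end factors, 5 replication-independent histones, 17 chaperones and 33 S phase genes were lower and 1 chaperone higher. This setting tests fewer members. With centred libraries 9 end factors were lower and 1 chaperone was higher (32.2% of the genes tested were called). With trend and robust moderation 8 members, 25 end factors, 5 replication-independent histones and 33 S phase genes were lower and 1 chaperone was higher. Under that moderation 41% of the genes tested were called (2999 higher and 4924 lower). At 20 or more read equivalents, a limit added after seeing the data, 3 members were lower. The cause of these shifts was otherwise not tested.

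With the replicate number as a block, 1740 genes were called against 6354, with 1 histone member higher and 4 lower (HIST1H2BJ and HIST1H1B, not called without the block, among them), 2 end factors lower, 1 replication-independent histone higher and 0 lower, 0 chaperones lower (11 without the block, by limma's unblocked test) and 0 S phase genes lower, and SLBP at -0.69 had an adjusted p of 0.0696. Same-numbered libraries did not deviate together over all genes (correlations of 0.02, 0.01 and -0.01 over 17698 genes). Whether they shared handling that moved only some genes cannot be told from these values.

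With each library left out in turn, 1223 to 8669 genes were called, the lowest without VC replicate 3 and the highest without KO replicate 1. Members higher numbered 1 to 6 and members lower 1 to 10, with a median of -0.34 to -0.14. Lower were 1 to 29 end factors, 0 to 6 replication-independent histones (1 to 2 higher), 0 to 18 chaperones and 0 to 38 S phase genes. The log2 fold change of SLBP ran from -0.83 to -0.54. The unknown depth and the few read equivalents of many members limit what could be seen.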
